A study of Sus scrofa with 9 samples.

Results

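Matricellular proteins are secreted into the matrix around cells, where they bind receptors, growth factors and collagen and mainly change how cells attach and signal rather than carry load. Periostin (POSTN), the thrombospondins (THBS1 and THBS2), SPARC, osteopontin (SPP1) and tenascin C (TNC) belong to this class. Fibronectin (FN1) builds the fibrils on which many of them assemble, and the lysyl oxidases (LOX, LOXL1, LOXL2) oxidise lysines of collagen and elastin so that the fibres become cross-linked. In arteries these genes are known for their rise at sites of injury and remodelling. They were examined here in endothelial cells of pig coronary arteries, which form the inner lining of the vessels that feed the heart. Members were all probe sets of an Affymetrix porcine array whose platform annotation gave exactly 1 gene symbol that was one of these 10 genes. The rule found 19 probe sets of 9 genes, out of 23999 probe sets and 6765 singly named genes on the array apart from control probe sets. No probe set carried LOXL2 as its only symbol, so LOXL2 was not analysed here.

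The study asked what changes in the genome-wide expression of these cells when they become senescent by repeated passaging, and it added cells that had regrown in the animal. Each of the 3 groups had 3 arrays, and no genotype, drug, sex or age is given in the labels. Passage 1 cells, the controls, had been in primary culture for a week. Passage 4 cells had been passaged every week and are called senescent in the labels. Regenerated cells had grown back in the living animal on arteries stripped of their endothelium, and were scraped off and kept in culture with no passage. The labelling used 1 ug of RNA for each passage 1 or passage 4 array and 0.5 to 1 ug for the regenerated ones, so RNA input and group cannot be told apart. Nothing in the labels ties the arrays of a group to separate animals or cultures, so the p-values speak of the spread among the arrays at hand, and this spread may be technical. All cells were measured in bulk, where fewer cells of a type and less RNA per cell cannot be told apart.

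Each value is the linear intensity of a probe set, called its signal below, and changes are differences of log2(signal + 16), which understate the change of dim probe sets. The trimmed mean signal was 500.1 in every array. Of the 19 member probe sets, 15 passed the filter on dim signals and at least 1 probe set of each of the 9 genes did. The other 4 reached at most signals of 40 (another probe set of POSTN), 30.5 and 19.1 (FN1) and 19.8 (LOX) in any array. Differences were tested with limma over all 15299 probe sets that passed, and "called" means an adjusted p under 0.05. The summed signal of 16 endothelial markers ran from 31293 to 36891 in passage 1, from 30814 to 31262 in passage 4 and from 28214 to 39855 in regenerated cells. PECAM1 signals lay between 5520 and 9079 and those of CDH5, the endothelial cadherin, between 8524 and 11246, while KDR stayed below the filter and VWF lay between 2.31 and 89.8. Of the 15 tested endothelial markers NOS3 (-0.97) and LMO2 (-1.92) were called lower and TSPAN7 higher (2.20) in passage 4, where 4.82% of all genes were called. CLDN5 was called lower (-1.62) and ENG higher (1.92) in regenerated cells, where 5.93% of all genes were called.

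The arrays also fell into 2 kinds by the control RNAs that are spiked in before labelling. In 4 arrays (passage 1 array 1 and all passage 4 arrays) the log2 difference between the 5′ and 3′ probe sets of these spike-ins lay between -2.09 and -1.77. In the other 5 (passage 1 arrays 2 and 3 and all regenerated arrays) it lay between -5.19 and -4.25. The gap between the kinds was 2.16, against a next largest gap of 0.32. Passage 1 is the one group that holds both kinds. A labelling-matched value therefore sets passage 4 against passage 1 array 1 alone, and regenerated against passage 1 arrays 2 and 3, in a fit with the kind as a block. The labelling-matched passage 4 changes of the endothelial markers NOS3, LMO2 and TSPAN7 were -0.55, -2.05 and 2.32. Matching is by the spike-ins only. The cells' own RNA differed further: the 5′ minus 3′ value of GAPDH was 0.22 and 0.19 in passage 1 arrays 2 and 3 but -0.02, -1.07 and -1.52 in the regenerated arrays of the same kind, and that of actin was -1.71 and -1.37 against -1.65, -2.16 and -2.78. The part of this difference in the regenerated results was not tested.

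Against passage 1, passage 4 cells had higher THBS1, LOX and SPARC signals in 4 of the 15 tested member probe sets (2 of THBS1, 1 of LOX and a dim one of SPARC that passed the filter only through the passage 4 arrays) and none lower. Over all tested probe sets, 4.79% were called in this comparison, 2.71% higher and 2.08% lower. The arrays of both groups did not overlap on 5 of the 15, against 24.9% of all probe sets. Without that SPARC probe set, the counts were 3 called and 4 not overlapping of 14. Regenerated cells had higher THBS2, LOXL1 and SPARC, 3 of the 15 and again none lower, where 5.49% of all probe sets were called, 2.98% higher and 2.51% lower. Here 8 of the 15 did not overlap, against 23% of all probe sets. The median change over the 15 probe sets was 0.47 in passage 4 and 0.44 in regenerated cells, against 0.04 and -0.01 over all tested probe sets. With the labelling kind as a block the median of the 15 was 0.04 in passage 4, equal to that of all probe sets (0.04), and 0.49 in regenerated cells. With the labelling kind as a block, no member probe set was called in passage 4 (0.98% of all probe sets were) and 5 were called in regenerated cells (6.05% of all probe sets). The 5 are the same 3 genes' probe sets with 1 each of FN1 and THBS1 added.

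**Figure D1:**
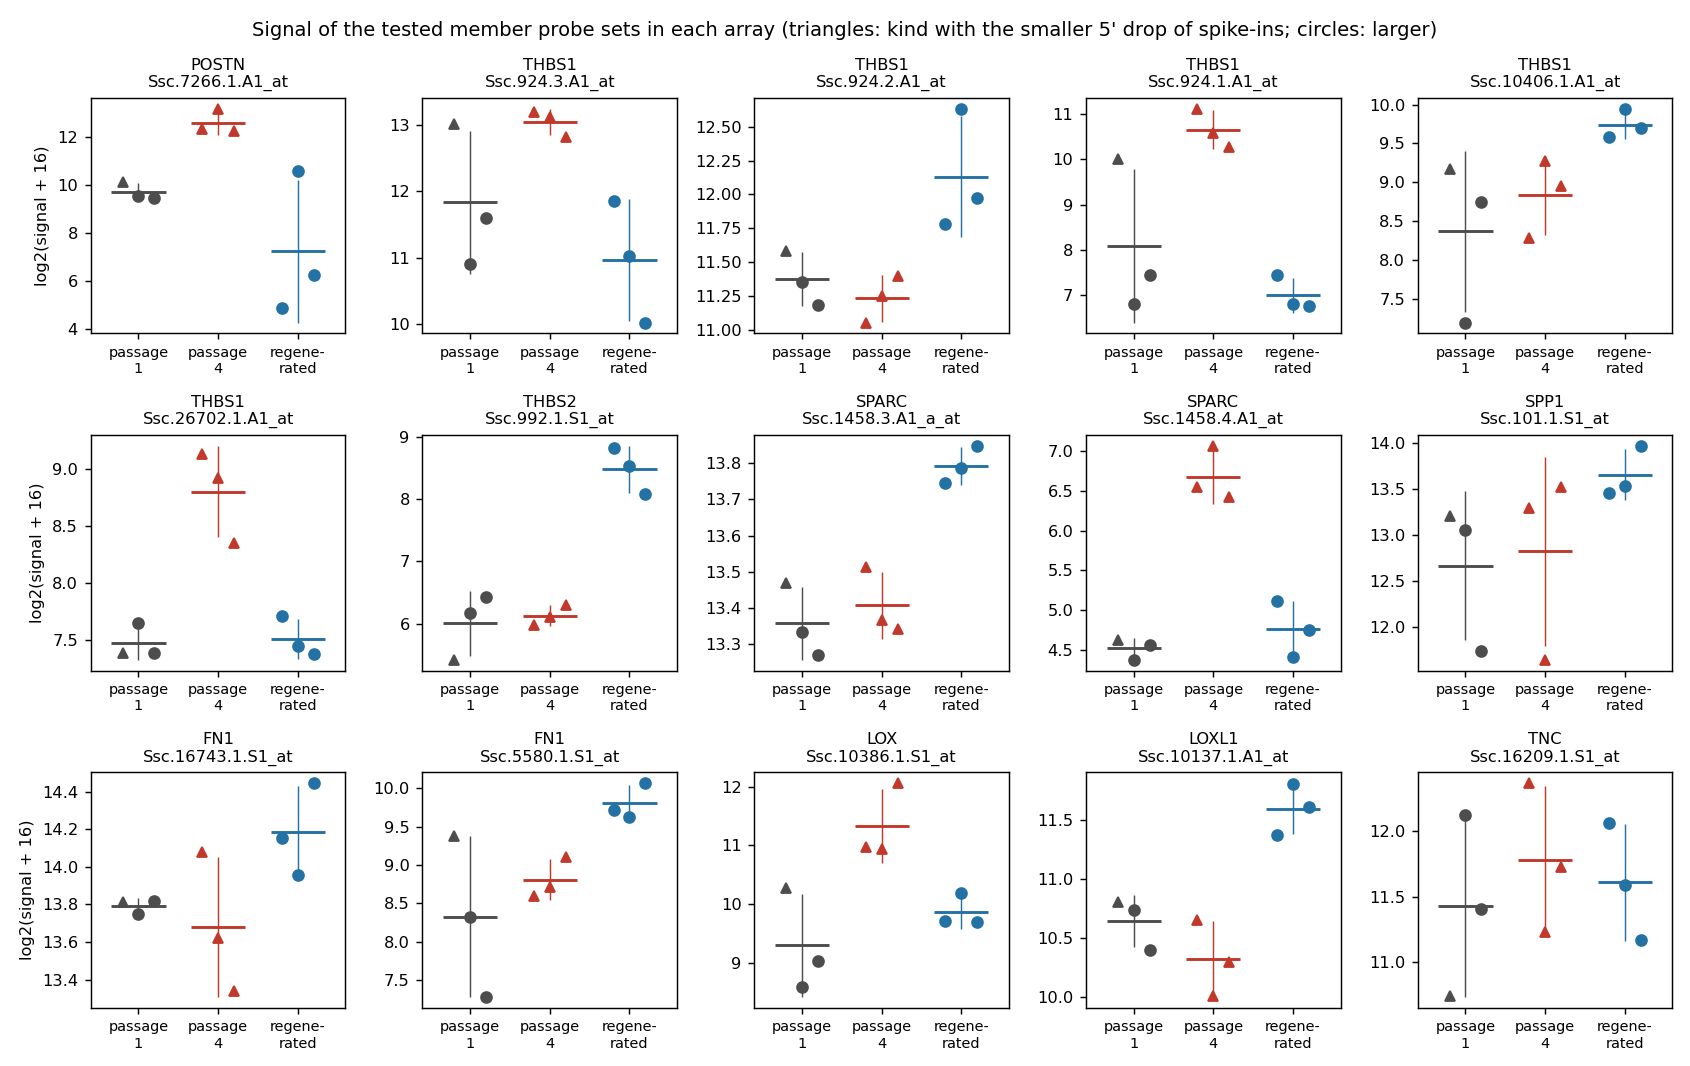
Signal of each tested member probe set in each array, on a log2(signal + 16) axis, by group. Each point is 1 array, triangles are arrays with the smaller 5′ drop of the spike-ins and circles those with the larger drop, the horizontal line is the group mean and the vertical line 1 SD either way. THBS2 is high in the 3 regenerated arrays and LOX in the 3 passage 4 arrays, where passage 1 array 1 (the passage 1 triangle) lies above the other controls.

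Periostin, a protein that binds collagen and integrins, was high in passage 4 and varied widely in regenerated cells. Its signals (probe set Ssc.7266.1.A1_at) were 1103, 729 and 685 in passage 1 and 5059, 9212 and 4892 in passage 4. In regenerated cells they were 13.1, 1500 and 60.2. Every passage 4 array lay above every other array, whereas the regenerated arrays lay on both sides of the passage 1 arrays. The passage 4 minus passage 1 change was 2.87 (SE 1.04, 95% interval 0.60 to 5.15, adjusted p = 0.147) and was not called. The shared spread is set largely by the regenerated arrays: only 0.0196% of tested probe sets varied as much or more within that group. In a fit of only the passage 1 and passage 4 arrays the same change had an adjusted p of 0.00342, and without regenerated array 2 it had 0.00528. Regenerated minus passage 1 was -2.48 (SE 1.04, adjusted p = 0.188), and -4.15 with an adjusted p of 0.00242 without regenerated array 2, the one with a signal of 1500. POSTN was higher in passage 4 than in regenerated cells by 5.35 (SE 1.04, adjusted p = 0.00809). Labelling-matched changes kept these directions, at 2.45 in passage 4 (adjusted p = 0.542), -2.27 in regenerated cells (adjusted p = 0.272) and 4.72 between those groups (adjusted p = 0.231).

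Thrombospondin 1 activates latent TGF-beta and inhibits endothelial growth, and its 5 probe sets did not move together. On Ssc.924.3.A1_at the signals were 8216, 1898 and 3076 in passage 1, 9386, 8886 and 7232 in passage 4, and 3706, 2068 and 1023 in regenerated cells. On Ssc.924.1.A1_at they were 1015, 96.1 and 158 in passage 1, 2213, 1530 and 1213 in passage 4, and 158, 95.3 and 91.8 in regenerated cells. On both probe sets passage 1 array 1 stood near the passage 4 arrays and the other passage 1 arrays stood near the regenerated ones. Ssc.924.1.A1_at was called higher in passage 4 than in passage 1, by 2.57 (SE 0.63, 95% interval 1.19 to 3.96, adjusted p = 0.0411), with no overlap of the arrays. Ssc.924.3.A1_at, at 1.21 (SE 0.50, adjusted p = 0.201), was not called unless passage 1 array 1 was left out (1.80, adjusted p = 0.0236). Against the labelling-matched control the changes were 0.65 (SE 0.41, adjusted p = 0.553) on Ssc.924.1.A1_at and 0.04 (SE 0.53, adjusted p = 0.986) on Ssc.924.3.A1_at. The call on Ssc.924.1.A1_at was lost in 12 of 19 alternative settings, among them leaving out passage 1 array 2 or 3, any 1 passage 4 array, or regenerated array 2 or 3.

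Another THBS1 probe set, Ssc.26702.1.A1_at, did not share that split of the controls. Its signals were 152, 185 and 152 in passage 1, 544, 468 and 311 in passage 4, and 194, 158 and 150.1 in regenerated cells. All passage 4 arrays lay above all other arrays, and passage 1 array 1 lay at the level of passage 1 array 3. It rose in passage 4 by 1.32 (SE 0.25, 95% interval 0.78 to 1.87, adjusted p = 0.0136), and its regenerated change was 0.03 (SE 0.25, 95% interval -0.51 to 0.58, adjusted p = 0.96). The labelling-matched passage 4 change was as large, 1.41 (SE 0.35), with an adjusted p of 0.0883. The call was also lost without passage 4 array 1 or array 2.

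The remaining pair of THBS1 probe sets was highest in regenerated cells. On Ssc.924.2.A1_at the signals were 3042, 2605 and 2313 in passage 1, 2105, 2419 and 2681 in passage 4, and 3505, 6339 and 4013 in regenerated cells. On Ssc.10406.1.A1_at they were 559, 130 and 412 in passage 1, 295, 603 and 479 in passage 4, and 749, 971 and 816 in regenerated cells. On both, every regenerated array lay above every array of the other groups, and passage 1 and passage 4 overlapped. Regenerated minus passage 1 was 0.76 (SE 0.22, adjusted p = 0.065) on Ssc.924.2.A1_at and 1.37 (SE 0.43, adjusted p = 0.0878) on Ssc.10406.1.A1_at, neither of them called. With the labelling kind as a block, Ssc.10406.1.A1_at was called, at 1.77 (SE 0.41, adjusted p = 0.0346), and Ssc.924.2.A1_at was not, at 0.86 (SE 0.24, adjusted p = 0.0575). Without regenerated array 1 the change of Ssc.924.2.A1_at was 0.93 and called (adjusted p = 0.0296). THBS1 as a gene thus has no single direction on this array: between passage 4 and regenerated cells 3 of its probe sets were called higher in passage 4 and 1 lower. Which transcripts or ends each probe set detects was not tested.

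**Figure D2:**
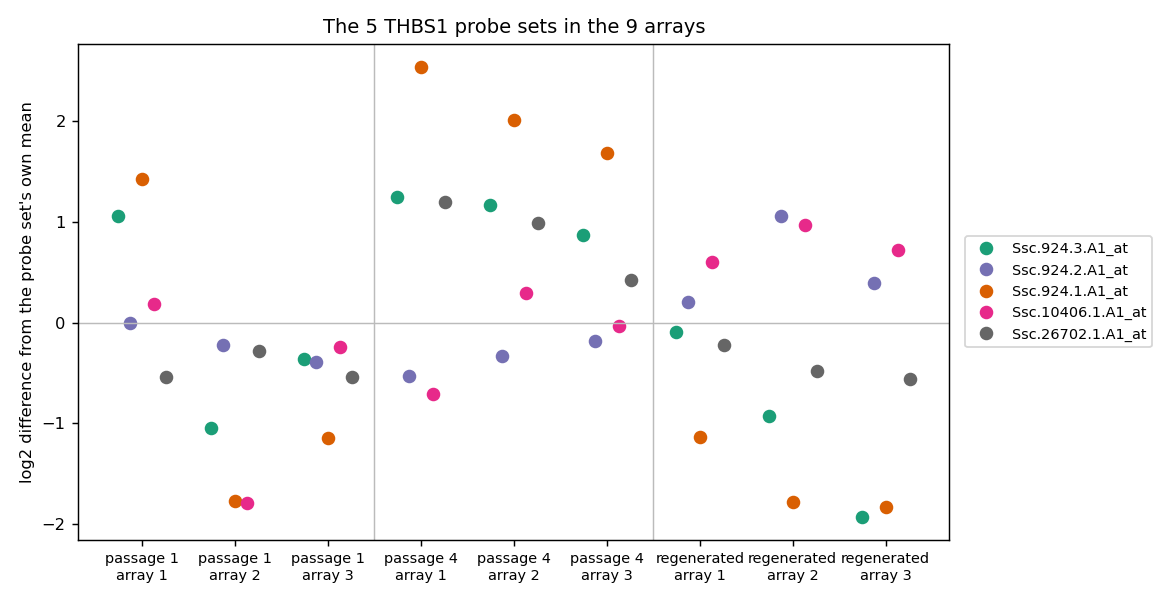
The 5 THBS1 probe sets, each as the difference of its log2(signal + 16) from its own mean over the 9 arrays (vertical axis), with 1 column of points for each array and 1 colour for each probe set. On Ssc.924.1.A1_at and Ssc.924.3.A1_at passage 1 array 1 sits with passage 4, on Ssc.26702.1.A1_at all passage 1 arrays sit with the regenerated ones, and on Ssc.924.2.A1_at and Ssc.10406.1.A1_at the regenerated arrays are highest.

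Thrombospondin 2, which limits vessel growth and shapes collagen fibrils, had the largest called change of any member in regenerated cells. Its signals (Ssc.992.1.S1_at) were 26.8, 55.9 and 70.0 in passage 1 and 46.8, 52.9 and 63 in passage 4, against 437, 354 and 254 in regenerated cells. The regenerated arrays lay far above all the others, which overlapped and stood close to the filter on dim signals. THBS2 rose in regenerated cells by 2.47 (SE 0.31, 95% interval 1.79 to 3.16, adjusted p = 0.00196). The labelling-matched change was 2.18 (SE 0.29, adjusted p = 0.00309), and the call held in 19 of 19 alternative settings. Its passage 4 change was 0.12 (SE 0.31, 95% interval -0.56 to 0.81, adjusted p = 0.878), and 0.71 (SE 0.37, adjusted p = 0.457) when labelling-matched.

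SPARC, a collagen-binding protein also known as osteonectin, was among the bright probe sets of every array. The signals of Ssc.1458.3.A1_a_at were 11320, 10305 and 9873 in passage 1, 11682, 10556 and 10373 in passage 4, and 13708, 14122 and 14732 in regenerated cells. The regenerated arrays lay above all the others by a small margin, and passage 1 and passage 4 overlapped. The regenerated change was 0.44 (SE 0.11, 95% interval 0.20 to 0.68, adjusted p = 0.0419), and 0.49 (SE 0.13, adjusted p = 0.0485) when labelling-matched. It was lost in 13 of 19 alternative settings, with adjusted p between 0.0338 and 0.161 over them, and leaving out any 1 array other than passage 1 array 1 ended it. A dim SPARC probe set, Ssc.1458.4.A1_at, behaved differently. Its signals were 8.70, 4.69 and 7.51 in passage 1, 77.3, 118 and 69.8 in passage 4, and 18.6, 5.20 and 11 in regenerated cells. It passed the filter only through the passage 4 arrays, so it was tested only because it was high there. Its call there (2.16, SE 0.31, adjusted p = 0.00424) is thus not independent of the filter. The call says nothing of the bright probe set, which changed by 0.05 (SE 0.11, 95% interval -0.19 to 0.29, adjusted p = 0.855) in passage 4.

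Osteopontin, a phosphoprotein that binds integrins and CD44, was bright in all groups and varied most within passage 1 and passage 4. SPP1 signals (Ssc.101.1.S1_at) were 9392, 8504 and 3388 in passage 1, 10030, 3176 and 11747 in passage 4, and 11241, 11820 and 16013 in regenerated cells. Passage 1 array 3 and passage 4 array 2 were well below the rest, and the regenerated arrays overlapped passage 4 but not passage 1. The regenerated change was 0.99 (SE 0.46, 95% interval -0.02 to 2.00, adjusted p = 0.238) and the passage 4 change 0.16 (SE 0.46, 95% interval -0.86 to 1.17, adjusted p = 0.897). Neither was called, and the labelling-matched changes, 1.26 (SE 0.51, adjusted p = 0.155) and -0.38 (SE 0.64, adjusted p = 0.861), were not called either.

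Tenascin C, a glycoprotein of wound and remodelling matrix, showed no called difference between groups. TNC signals (Ssc.16209.1.S1_at) were 1697, 4462 and 2704 in passage 1, 5280, 2391 and 3383 in passage 4, and 4271, 3073 and 2290 in regenerated cells. All 3 groups overlapped. The passage 4 change was 0.35 (SE 0.36, 95% interval -0.44 to 1.14, adjusted p = 0.659) and the regenerated change 0.18 (SE 0.36, 95% interval -0.61 to 0.97, adjusted p = 0.811). Labelling-matched, the passage 4 change was 1.04 (SE 0.44, 95% interval 0.07 to 2.00, adjusted p = 0.339) and the regenerated change -0.16 (SE 0.35, adjusted p = 0.819).

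Fibronectin has a bright and a less bright probe set, and both had their highest mean in regenerated cells. On Ssc.16743.1.S1_at the signals were 14386, 13743 and 14457 in passage 1, 17321, 12587 and 10360 in passage 4, and 18195, 15899 and 22318 in regenerated cells. On Ssc.5580.1.S1_at they were 647, 306 and 140 in passage 1, 373, 406 and 537 in passage 4, and 822, 777 and 1057 in regenerated cells. On both, the regenerated arrays lay above every passage 1 array, and passage 4 overlapped passage 1. The regenerated change was 0.39 (SE 0.18, adjusted p = 0.226) on Ssc.16743.1.S1_at and 1.47 (SE 0.41, 95% interval 0.58 to 2.37, adjusted p = 0.0603) on Ssc.5580.1.S1_at. On the second of these passage 1 array 1 was again the highest control, and the labelling-matched change was called, at 2.00 (SE 0.31, adjusted p = 0.00588). The passage 4 changes were -0.11 (SE 0.18, adjusted p = 0.791) and 0.48 (SE 0.41, adjusted p = 0.587).

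Lysyl oxidase, the enzyme that starts collagen and elastin cross-linking, was higher in passage 4. LOX signals (Ssc.10386.1.S1_at) were 1223, 366 and 505 in passage 1, 1998, 1948 and 4259 in passage 4, and 820.5, 1151 and 810 in regenerated cells. Every passage 4 array lay above every other array, and passage 1 array 1 was the highest of the rest, above all regenerated arrays. LOX rose in passage 4 by 2.03 (SE 0.41, 95% interval 1.14 to 2.92, adjusted p = 0.0193). Against the labelling-matched passage 1 array 1 the change was 1.05 (SE 0.42, 95% interval 0.13 to 1.97, adjusted p = 0.308), which was not called. Leaving out passage 1 array 2, passage 1 array 3 or passage 4 array 3 also ended the call, with changes between 1.67 and 1.90. Regenerated minus passage 1 was 0.57 (SE 0.41, adjusted p = 0.454) over all controls and 1.06 (SE 0.33, adjusted p = 0.0814) when labelling-matched. Passage 4 and regenerated cells differed by 1.46 (SE 0.41, adjusted p = 0.0366), and by -0.01 (SE 0.53, adjusted p = 0.994) with the labelling kind as a block.

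LOXL1, the lysyl oxidase best known for its part in elastic fibre upkeep, had its higher level in regenerated cells instead. LOXL1 signals (Ssc.10137.1.A1_at) were 1777, 1693 and 1332 in passage 1, 1598, 1017 and 1244 in passage 4, and 2640, 3576 and 3123 in regenerated cells. The regenerated arrays lay above all the others, and passage 1 and passage 4 overlapped. LOXL1 rose in regenerated cells by 0.95 (SE 0.20, 95% interval 0.51 to 1.4, adjusted p = 0.0213), and by 1.03 (SE 0.22, adjusted p = 0.0265) when labelling-matched. The call was lost without passage 1 array 3, regenerated array 2 or regenerated array 3, with changes of 0.83, 0.85 and 0.94. Its passage 4 change was -0.33 (SE 0.20, 95% interval -0.77 to 0.12, adjusted p = 0.433).

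**Figure D3:**
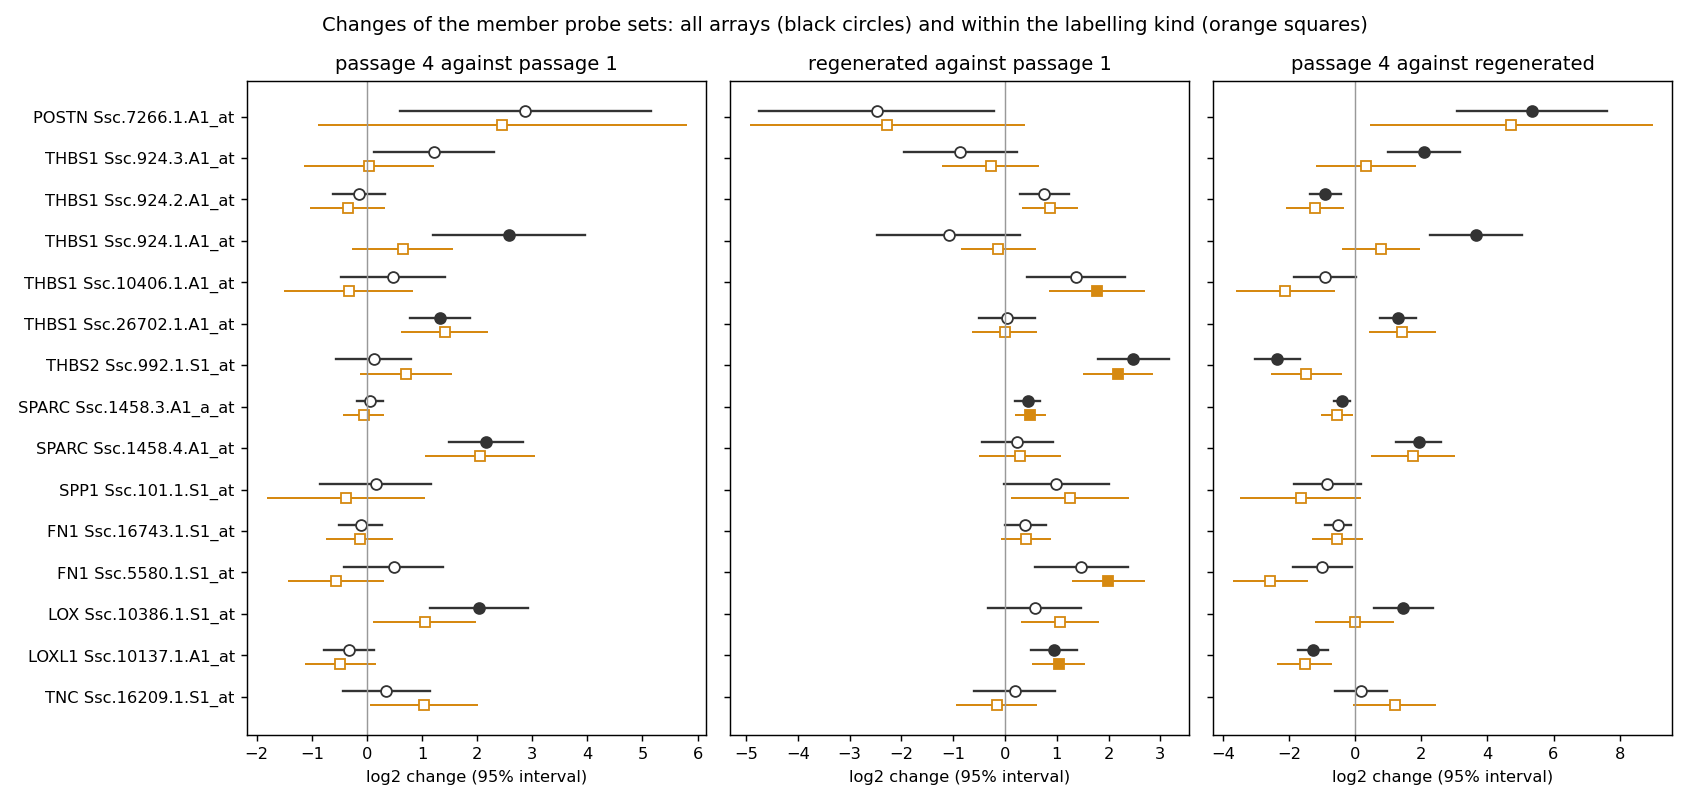
Log2 change of each tested member probe set in the 3 comparisons (panels), with 95% intervals as bars, from the fit of all 9 arrays (black circles) and from the fit with the labelling kind as a block (orange squares). Filled symbols are called. The passage 4 changes of LOX and THBS1 Ssc.924.1.A1_at shrink from 2.03 to 1.05 and from 2.57 to 0.65 with the block, whereas the regenerated changes of THBS2 and LOXL1 stay at 2.18 and 1.03.

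How far passage 1 array 1 stood from the other passage 1 arrays differed greatly between members. It was higher by 2.89 on THBS1 Ssc.924.1.A1_at, a value that 0.163% of all tested probe sets reached, and by 1.76 on THBS1 Ssc.924.3.A1_at (1.13% of probe sets). LOX was 1.47 higher in it (2.02%) and FN1 Ssc.5580.1.S1_at 1.57 higher (1.69%). LOXL1, at 0.24, and THBS1 Ssc.26702.1.A1_at, at -0.13, differed little between the controls, and THBS2, at -0.88, and TNC, at -1.03, were lower in it. Over all tested probe sets 5.68% were at least 1 log2 unit higher in passage 1 array 1 and 4.75% at least 1 lower. Passage 1 array 1 also had the highest summed signal of smooth muscle and pericyte markers of its group, 41185 against 26968 and 19013. ACTA2 was 13189 in it against 2519 and 196, and CNN1 399 against 147 and 26.1. TAGLN was near equal in passage 1 arrays 1 and 2 (10230.5 and 10221, with 7707 in array 3). PDGFRB (64.3 against 104 and 69.7) and SMTN (510 against 601 and 698) were lower in array 1. The part of labelling and of cell makeup in these differences was not tested.

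**Figure D4:**
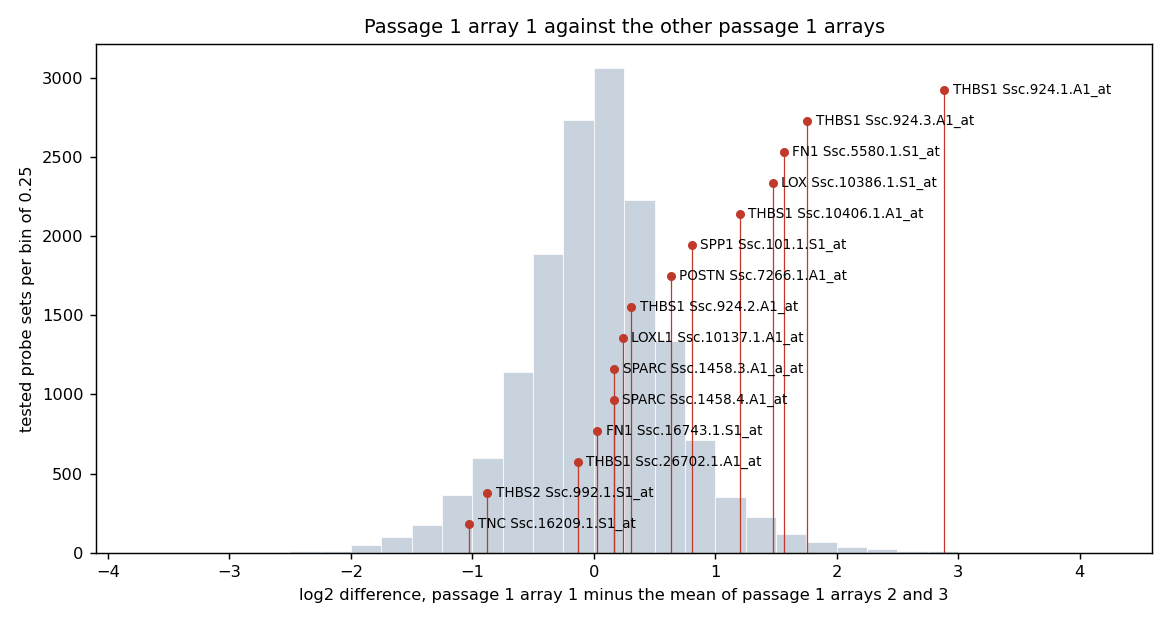
Log2 difference between passage 1 array 1 and the mean of passage 1 arrays 2 and 3 over all 15299 tested probe sets (histogram), with the 15 member probe sets marked by red points whose height carries no value. THBS1 Ssc.924.1.A1_at, at 2.89, lies at the upper end, and TNC, at -1.03, is the lowest member.

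Set directly against each other, passage 4 and regenerated cells differed in 10 of the 15 tested member probe sets, where 12.5% of all tested probe sets were called. The change itself uses no passage 1 array, though the estimate of spread does. POSTN, LOX, the dim SPARC probe set and 3 THBS1 probe sets (Ssc.924.1.A1_at, Ssc.924.3.A1_at and Ssc.26702.1.A1_at) were higher in passage 4, by 1.29 to 5.35, where 8.14% of all probe sets were. THBS2, LOXL1, the bright SPARC probe set and THBS1 Ssc.924.2.A1_at were lower in passage 4, with changes from -2.35 to -0.39, where 4.35% of all probe sets were. The arrays of the groups did not overlap on 12 of the 15 probe sets, against 36.2% of all tested ones. Without the dim SPARC probe set, which passed the filter only through the passage 4 arrays, 9 of 14 were called (5 higher, 4 lower) and 11 of 14 did not overlap. Leaving out any 1 passage 4 or regenerated array ended the calls of LOX and of the bright SPARC probe set, and leaving out passage 4 array 1 or 2 or regenerated array 2 ended those of Ssc.924.2.A1_at and Ssc.924.3.A1_at, the latter also without regenerated array 3. These groups lie in different labelling kinds, and with the kind as a block, which brings in the passage 1 arrays, no member was called and 0.229% of all probe sets were. The median standard error was then 0.444 in place of 0.266. Under the block the differences of LOX (-0.01), THBS1 Ssc.924.3.A1_at (0.32) and THBS1 Ssc.924.1.A1_at (0.78) shrank most, and that of THBS2 went from -2.35 to -1.47. Those of POSTN (4.72), the dim SPARC probe set (1.76) and THBS1 Ssc.26702.1.A1_at (1.42) stayed close to their values without it, and those of LOXL1 (-1.52), THBS1 Ssc.924.2.A1_at (-1.21) and the bright SPARC probe set (-0.55) were larger in size.

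Receptors of these proteins were examined next, with each gene read by its brightest probe set. Of 10 tested receptor genes, integrin alpha V (ITGAV) rose and integrin beta 3 (ITGB3) fell in passage 4, while 4.82% of all genes were called. In regenerated cells ITGAV and ITGB5 rose and ITGB3 fell, against 5.93% of all genes. These subunits form the alpha V integrins that bind periostin, osteopontin and fibronectin. ITGB3 signals were 429 ± 172 (SD, n = 3) in passage 1, 69.4 ± 34.8 (SD, n = 3) in passage 4 and 92.8 ± 25.8 (SD, n = 3) in regenerated cells. Its changes were -2.41 (SE 0.38, adjusted p = 0.00551) and -1.99 (SE 0.38, adjusted p = 0.0128), and both remained called when labelling-matched, at -3.0 and -1.70. Labelling-matched, ITGA5, the fibronectin receptor's alpha subunit, was also called lower in regenerated cells, at -0.97 (SE 0.24, adjusted p = 0.0454), against -0.59 (adjusted p = 0.29) over all controls. ITGB5 rose in regenerated cells by 1.5 (SE 0.16, adjusted p = 0.000856) and ITGAV by 1.12 (SE 0.16, adjusted p = 0.00298). In passage 4 ITGAV rose by 0.78 (SE 0.16, adjusted p = 0.0214), and its labelling-matched change of 0.62 was not called (adjusted p = 0.255).

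Of 11 tested genes of TGF-beta signalling, which induces many matricellular genes, TGFB2 alone was called in passage 4, against 4.82% of all genes. ENG and PMEPA1 were called higher in regenerated cells, where 5.93% of all genes were called. PMEPA1, an inhibitor of the pathway that is itself its target, rose by 4.20 (SE 0.39, adjusted p = 0.000319), and endoglin (ENG), a co-receptor, by 1.92 (SE 0.38, adjusted p = 0.0153). TGFB2, a ligand, rose in passage 4 by 1.55 (SE 0.39, adjusted p = 0.0445). Its signals were 2588, 749 and 1104 in passage 1 and 3974, 3676 and 3810 in passage 4, so that passage 1 array 1 was the highest control, as for LOX. The labelling-matched change of TGFB2 was 0.56 (adjusted p = 0.586). Other TGFB2 probe sets, Ssc.10287.1.A1_at and Ssc.12131.1.A1_at, were called higher in regenerated cells, by 1.63 and 1.07. The dimmer Ssc.92.1.A1_at was called higher in passage 4 (2.37, adjusted p = 0.0399), with a regenerated change of -0.21 (SE 0.58). In passage 4 Ssc.10287.1.A1_at and Ssc.12131.1.A1_at changed by 1.02 and 0.91 and were not called. TGFB2 probe sets thus differed in which group was called, but none was called lower in either comparison with passage 1. The list medians were -0.20 in passage 4 and 0.43 in regenerated cells, against -0.02 and -0.04 over all genes, and the passage 4 median turned to 0.15 when labelling-matched.

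The other lists of matrix genes are short and had at most 1 call each per comparison with passage 1, where 4.82% (passage 4) and 5.93% (regenerated) of all genes were called. Among 7 tested further matricellular and matrix glycoprotein genes, SRPX2 fell in passage 4 with a change of -1.26 (SE 0.28, adjusted p = 0.0292), and thrombospondin 3 (THBS3) rose in regenerated cells by 1.21 (SE 0.19, adjusted p = 0.00507). Among 8 cross-linking and collagen processing genes, the lysyl hydroxylase PLOD3 fell in passage 4 with a change of -0.82 (SE 0.19, adjusted p = 0.0345), and LOXL4, a further lysyl oxidase, rose in regenerated cells by 0.97 (SE 0.23, adjusted p = 0.0362). LOXL4 signals were 541 ± 85.2 (SD, n = 3) in passage 1, 669 ± 169 (SD, n = 3) in passage 4 and 1082 ± 224 (SD, n = 3) in regenerated cells. LOXL4 thus had its highest group mean in regenerated cells, as LOXL1 did. EFEMP2 rose by 1.58 (SE 0.30, adjusted p = 0.0133) as 1 of 2 tested elastic fibre genes, and COL5A1 by 1.03 (SE 0.21, adjusted p = 0.0173) as 1 of 3 tested fibrillar collagens, both in regenerated cells. Neither of these lists had a call in passage 4, and at least 1 other probe set each of EFEMP2, COL5A1 and THBS3 was not called in regenerated cells. The labelling-matched changes of SRPX2 (-0.99, adjusted p = 0.302), PLOD3 (-0.47, adjusted p = 0.412) and LOXL4 (0.92, adjusted p = 0.0613) were not called.

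**Figure D5:**
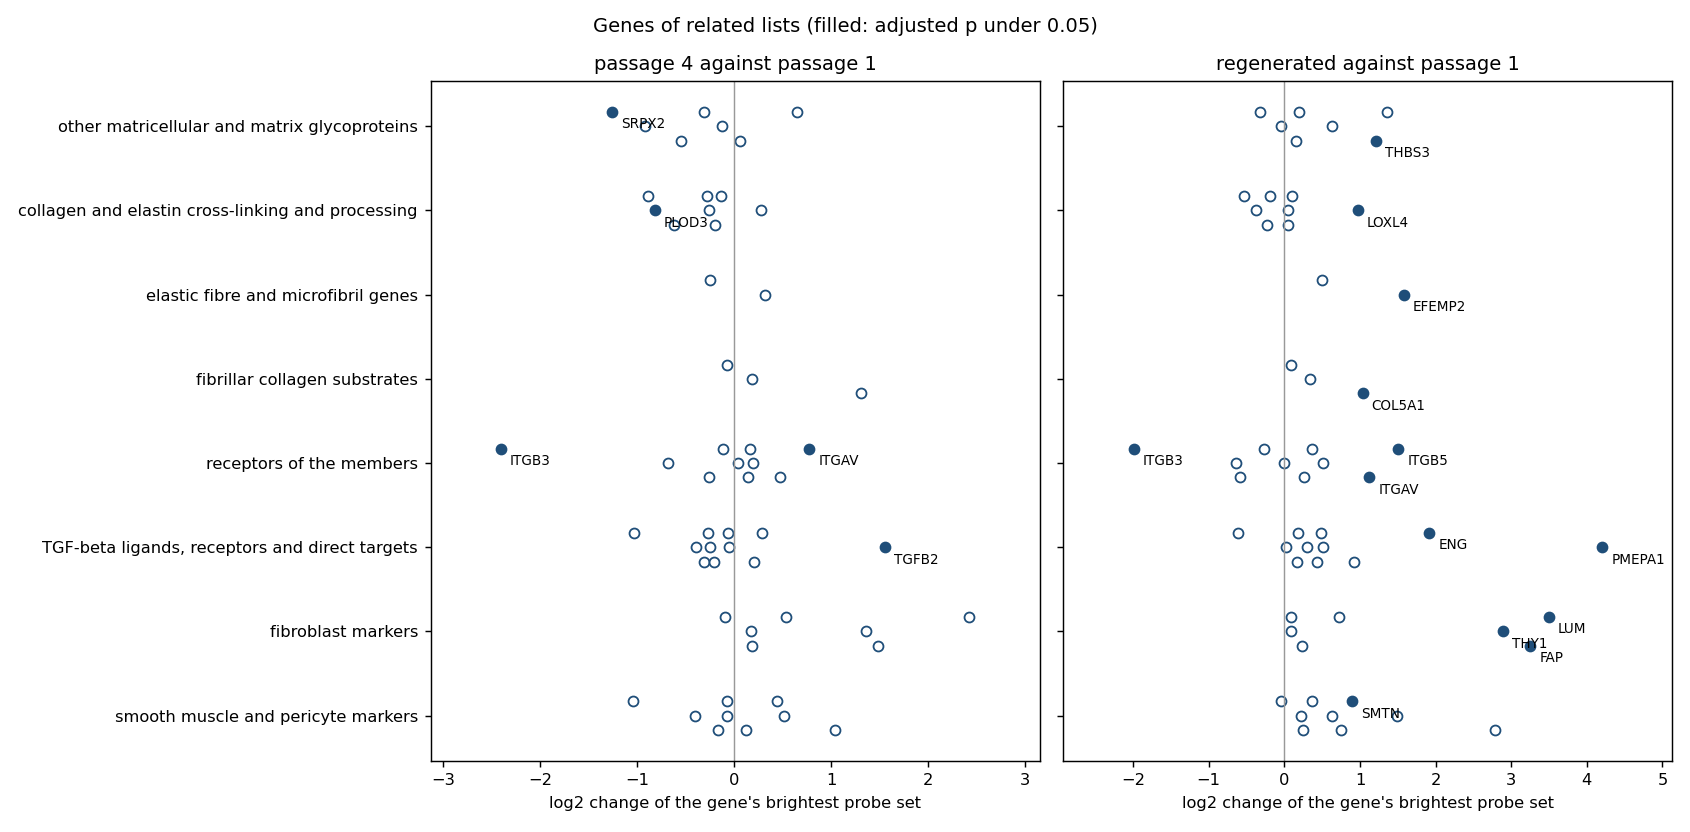
Log2 change against passage 1 (horizontal axis) of each tested gene of the related lists and of 2 marker lists (rows), in passage 4 (left panel) and regenerated cells (right panel), read by each gene's brightest probe set. Filled, named points are called, and both panels share the passage 1 arrays. PMEPA1 lies at 4.20 in regenerated cells, and ITGB3 is low in both groups (-2.41 and -1.99).

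Matrix genes such as POSTN, THBS2, LOX and FN1 are also strongly expressed by fibroblasts and smooth muscle cells, so markers of these cells are given beside them. The summed signal of 11 fibroblast markers ran from 691 to 1213 in passage 1, from 966 to 3800 in passage 4 and from 1981 to 3009 in regenerated cells. The 3800 is passage 4 array 3, where PDPN alone had 2705. Without PDPN the ranges were 542 to 819, 855 to 1095 and 1892 to 2559. Of 7 tested fibroblast markers 3 were called higher in regenerated cells (5.93% of all genes were called there): LUM by 3.5 (SE 0.87, adjusted p = 0.0396), FAP by 3.25 (SE 0.45, adjusted p = 0.00241) and THY1 by 2.89 (SE 0.42, adjusted p = 0.00327). LUM signals in regenerated cells were 660, 30.1 and 1014. Regenerated array 2, the low one for LUM, was the high one for POSTN. Of the defining markers, COL3A1, DCN and COL1A2 stayed at or below signals of 33.4, 190 and 221 in all arrays. LUM, also a defining marker, reached 1014 in regenerated array 3. DCN signals were 20.1, 16.6 and 68.7 in passage 1 and 142, 190 and 50.9 in passage 4. Those of LUM were 5.80, 17.9 and 14.1 in passage 1 and 160, 159 and 96.7 in passage 4 (change 2.43, adjusted p = 0.143). In passage 4, 6 of the 7 tested fibroblast markers were higher and 1 was lower than in passage 1, and none was called. The 12 smooth muscle and pericyte markers summed to between 19013 and 41185 in passage 1, between 20073 and 37327 in passage 4, and between 35336 and 50937 in regenerated cells, and DES was below the filter. ACTA2, smooth muscle actin, had signals of 10021, 12254 and 18924 in regenerated cells. It had 13189, 2519 and 196 in passage 1 and 10501, 485 and 1140 in passage 4. Mean TAGLN signals were 9386 in passage 1 and 9337 in regenerated cells, and those of MYL9 were 1134 and 1297. CNN1 signals were 92.1, 15.4 and 79.9 in passage 4 and 419, 343 and 387 in regenerated cells. CNN1 was called lower in passage 4 than in regenerated cells (-2.53, SE 0.69, adjusted p = 0.0325), where 10.7% of all genes were called. It was the 1 call of this list there, with 8 markers lower and 1 higher, and 0 were called with the labelling kind as a block. PDGFRB signals were 241, 152 and 75.8 in regenerated cells and 105, 102 and 130 in passage 4. Of 9 tested markers of this list, 8 were higher and 1 was lower in regenerated than in passage 1 cells. Only SMTN was called there, by 0.89 (SE 0.22, adjusted p = 0.0422). Leukocyte markers, none of which passed the filter, summed to at most 373 in any array. The part of other cell types in the changes of THBS2, LOXL1 and the other members was not tested.

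For each member the 3 named genes with the most similar profile were found by Pearson's r over the 9 arrays, between brightest probe sets. These points share their groups and labelling kinds, so the values describe these arrays only. THBS2 was followed most closely by PMEPA1 (r = 0.983), CCNL2 (0.976) and MAP2K6 (0.969), and LOXL1 by TM2D1 (0.973), USMG5 (0.971) and ASPN (0.970). For LOX the nearest were FAM92A (0.976), AKR1CL1 (0.971) and DEGS1 (0.953), and for THBS1 (Ssc.924.3.A1_at) MDFIC (0.971), GOLGA5 (0.968) and TOMM70 (0.964). SPARC had SDC2 (0.977), FBXO32 (0.967) and GLUL (0.963), and SPP1 had HIGD1B (0.972), OXTR (0.957) and CST6 (0.924). The nearest genes were less similar for FN1 (MYH9, S100A11 and CCNDBP1, from 0.933 to 0.906), POSTN (ELMO3, GDAP2 and LSM12, from 0.930 to 0.912) and TNC (HDAC3, POLB and AGPAT4, from 0.920 to 0.874). No member was among the 3 nearest genes of another member.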

How the data were processed

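Per the submitters' processing notes the deposited values are MAS5 signals, which are linear probe set intensities that the authors deposited already scaled. A MAS5 version, the target of the scaling and the detection calls were not found in the labels. Gene names came from the platform annotation. Of 24123 probe sets, 10099 had 1 symbol, 198 several and 13826 none, and all 19 member probe sets had an Entrez number found in RefSeq with the same symbol.

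From these values log2(signal + 16) was computed with no further normalization. The 124 control probe sets were left out, and probe sets above the array's own 40th percentile on 3 or more arrays (37.2 to 49.2) were tested. All 9 arrays were fitted in limma 3.58.1 under R 4.3.3 (lmFit, eBayes with a trend, 6 residual and 5.65 prior degrees of freedom), with two-sided tests and Benjamini-Hochberg adjustment over all tested probe sets. The scripts were tested on simulated data. The number of arrays limits the precision.

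Arrays were divided into labelling kinds at the largest gap in the dap and thr spike-ins' 5′ minus 3′ values. Related genes were taken from fixed lists, naming up to 4 called genes a list with the largest change, and list genes given only by value. The members and lists were chosen with earlier results of these data known. Alternatives covered pseudocounts, filters, quantile and median scaling, the trend, fewer groups, blocks and leaving out each array.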

Additional observations from a re-analysis of the deposited data

Results flagged for a closer look

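The 10 results here stand out because the effect differed between passage 4 and regenerated cells under the same control, by limma's test of that difference over all 9 arrays. Higher in passage 4 were POSTN by 5.35, LOX by 1.46, the dim SPARC probe set Ssc.1458.4.A1_at by 1.92, and the THBS1 probe sets Ssc.924.1.A1_at by 3.66, Ssc.924.3.A1_at by 2.08 and Ssc.26702.1.A1_at by 1.29. Passage 4 minus regenerated was -2.35 for THBS2, -1.28 for LOXL1, -0.39 for the bright SPARC probe set and -0.90 for THBS1 Ssc.924.2.A1_at. The THBS1 probe sets thus differ in sign. The dim SPARC probe set passed the filter only through the passage 4 arrays, so it was tested only because it was high there, and its call is not independent of the filter. With the labelling kind as a block none kept its call, and 0.229% of all tested probe sets were called. The median standard error was 0.444 in place of 0.266. The values were then -0.01 for LOX, 0.32 and 0.78 for THBS1 Ssc.924.3.A1_at and Ssc.924.1.A1_at, and -1.47 for THBS2, all smaller in size. They were 4.72 for POSTN, 1.76 for the dim SPARC probe set, 1.42 and -1.21 for THBS1 Ssc.26702.1.A1_at and Ssc.924.2.A1_at, -1.52 for LOXL1 and -0.55 for bright SPARC, close to or larger in size than without it. Labelling kind and group cannot be told apart for these groups except through the passage 1 arrays.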

How the results depend on the processing

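The counts of called member probe sets were 4 in passage 4 against passage 1, 3 in regenerated against passage 1 and 10 between passage 4 and regenerated. With the labelling kind as a block they were 0, 5 and 0. That block leaves 1 control array for passage 4, and its median standard error was 0.348, 0.275 and 0.444 against 0.266. Leaving out 1 array gave 1 to 5 (fewest without any 1 passage 4 array, most without passage 1 array 1), 1 to 5 (fewest without passage 1 array 3 or regenerated array 3, most without passage 1 array 1) and 5 to 11 (fewest without passage 4 array 2, most without passage 1 array 1 or 3). Calls over all probe sets moved too in those settings. In the first comparison they went from 733 to between 252 and 292 where member calls were fewest and to 1381 where they were most. In the second they went from 840 to 508 and 332 where member calls were fewest and to 917 where they were most. In the third they went from 1912 to 996 where member calls were fewest and to 2408 and 2044 where they were most. Whichever array was left out, calls over all probe sets lay between 236 and 1381, 277 and 1218, and 884 and 2408. Without the dim SPARC probe set, a choice made after the data were seen, the member counts were 3, 3 and 9.

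Deviations from the group means correlated between -0.138 and 0.186 for arrays with the same number and between -0.199 and 0.185 for arrays with different numbers. The labels do not say whether the numbers pair the samples, and these correlations cannot decide it. With the replicate block the counts were 4, 2 and 8, and the calls over all probe sets 549, 554 and 1626 against 733, 840 and 1912.

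Over all member probe sets and alternatives, 730 values kept their direction and side of the threshold, 72 lost a call, 15 gained one and 26 changed sign. Apart from LOX, each of these had no call in its comparison. In passage 4 against passage 1 SPP1 changed sign with median centring (-0.0014) and the labelling block (-0.38) and ran from -0.31 to 0.75 when 1 array was left out. The bright SPARC probe set did so with median centring (-0.11) and the block (-0.060), from -0.0024 to 0.11. THBS2 did so with quantile normalization (-0.022) and median centring (-0.034), from -0.17 to 0.33. THBS1 Ssc.10406.1.A1_at did so with the block (-0.33), from -0.12 to 0.87, and FN1 Ssc.5580.1.S1_at with the block (-0.56), from -0.040 to 1.00. FN1 Ssc.16743.1.S1_at ran from -0.31 to 0.057. In regenerated against passage 1 TNC did so with the block (-0.16), from -0.16 to 0.53, and THBS1 Ssc.26702.1.A1_at with the block (-0.0099), from -0.067 to 0.12. Between passage 4 and regenerated LOX did so with the block (-0.011), and TNC ran from -0.13 to 0.44. The cause was not tested.

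With the labelling block, chosen for the lists after the data were seen, the calls in passage 4 against passage 1 were 0 for the other matricellular, cross-linking and TGF-beta genes and 1 for the receptors. In regenerated against passage 1 the cross-linking genes had 0, and between passage 4 and regenerated each of the 6 lists had 0. With the mean of all probe sets of a gene, the fibrillar collagens had 1 call in passage 4, 0 in regenerated cells and 0 between these groups, the elastic fibre genes had 0 in regenerated cells and 0 between these groups, and the cross-linking genes had 2 between them.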
